A study of Mus musculus with 3 samples.

Results

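The aryl hydrocarbon receptor axis and type 17 genes were followed as 9 transcripts chosen by symbol: Ahr, Ahrr, Tiparp, Gpr15, Rora, Maf, Il17a, Il21 and Il22. All 9 were found among the 17121 genes of the deposited table. RNA was sequenced from wild-type mouse CD8+ T cells of spleen and lymph node after 3 days of culture, in 3 groups of 1 sample each. Young TCR cells, from mice of 6 weeks, were stimulated through CD3 and CD28 with antibodies (1 µg/ml). These engage the T cell receptor (TCR) and a costimulatory receptor. Young TRM cells, also from mice of 6 weeks, received the same antibodies plus 2 cytokines, 20 ng/ml of IL-15 with 5 ng/ml of TGF-beta, a mix named for tissue-resident memory T cells (TRM). Aged TRM cells, from mice of 18 months, received the TRM mix. The labels give neither the sex nor the number of the mice, and an aged sample without the cytokines was not analysed here.

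AHR is a transcription factor that is held in the cytosol by HSP90 and its co-chaperones until a small aromatic ligand, such as a tryptophan product or a pollutant, binds it. It then pairs with ARNT in the nucleus and acts on genes that carry the core letters GCGTG, among them those for its own repressor AHRR and for TIPARP, an ADP-ribosyltransferase that also limits it. AHR is known for keeping resident T cells in skin and gut and for driving IL-22. Type 17 T cells are defined by IL-17A, IL-21 and IL-22 and by transcription factors that include ROR-alpha and c-MAF, and GPR15 is a receptor that guides T cells to the colon and skin.

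The promoters of 3 of the genes are shown for the letters these factors are known to bind, since Ahrr and Tiparp report on AHR and Il17a on the ROR factors. RefSeq promoters of GRCm38.p6 matched 7 of the 9 genes: Ahrr, Gpr15, Il17a, Il21, Il22, Rora and Tiparp. Each line holds the 250 bases before the start of the gene, read 5′ to 3′ on the gene's strand, with GCGTG or AGGTCA, on either strand, in capitals.
Ahrr, chr13:74292332-74292581, minus strand: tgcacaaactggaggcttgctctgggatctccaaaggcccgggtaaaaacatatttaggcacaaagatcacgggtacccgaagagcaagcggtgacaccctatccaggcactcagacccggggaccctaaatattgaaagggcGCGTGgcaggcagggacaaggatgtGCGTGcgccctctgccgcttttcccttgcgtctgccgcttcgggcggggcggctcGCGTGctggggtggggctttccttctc
Tiparp, chr3:65528197-65528446, plus strand: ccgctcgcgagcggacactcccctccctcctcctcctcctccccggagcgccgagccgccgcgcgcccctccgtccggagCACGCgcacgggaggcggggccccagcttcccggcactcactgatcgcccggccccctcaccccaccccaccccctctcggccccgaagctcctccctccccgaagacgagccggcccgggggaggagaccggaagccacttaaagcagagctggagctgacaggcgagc
Il17a, chr1:20730655-20730904, plus strand: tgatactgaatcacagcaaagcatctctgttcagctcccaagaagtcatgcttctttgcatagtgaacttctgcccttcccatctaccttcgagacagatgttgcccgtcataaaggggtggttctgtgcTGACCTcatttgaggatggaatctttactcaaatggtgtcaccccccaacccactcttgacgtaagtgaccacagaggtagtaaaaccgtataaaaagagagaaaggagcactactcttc
The Ahrr window holds GCGTG 3 times, its first bases lying 107, 82 and 27 bases before the start, and the Tiparp window holds it once as its reverse complement CACGC, 170 bases before. GCGTG occurred in 28.1% of 32817 windows of this length and in 4 of the 7 windows of these genes, those of Ahrr, Tiparp, Il21 and Rora. The windows of Rora and Il22 precede a later start and lie inside the annotated genes. Over all windows, 2.77% held at least 3 copies. The longer form TNGCGTG, which contains GCGTG, occurred in 4.10% of windows and in 1 of the 7, that of Ahrr. AGGTCA, the core letters of a ROR site, occurred in 14% of windows and once among the 7, as TGACCT 120 bases before the start of Il17a. These are matches of letters and do not show binding.

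The table assigned 39915663, 36021887 and 40385477 reads to young TCR, young TRM and aged TRM, in 2 numbered columns per sample. The labels do not say what the numbers mean, so the columns were taken as repeat measurements of 1 sample, and no difference was tested against variation between mice. Levels are given as CPM, read counts scaled to a common library size with trimmed-mean (TMM) factors, and as the authors' TPM, which also divides by length, where genes are set beside each other. The words rose and fell are kept for genes that were called: with 1 CPM added to both levels they differed by 2-fold or more, and 1 lay outside the 95% interval of the ratio. Folds carry no added 1, log2 ratios do, and all intervals cover counting error only. Between the columns of a sample the variance was 2.31 to 3.02 times the counting variance, so counting intervals are too narrow even for repeat measurements. In such bulk RNA, more cells of a type and more RNA per cell cannot be told apart.

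Of the labelled cell type, all 6 CD8 T cell markers, with Cd8a and Cd3e among them, had reads in every sample, and they summed to 2278, 3700 and 3413 CPM in young TCR, young TRM and aged TRM. Cd4 stood at 10.5, 12.4 and 11.6 CPM. Of 8 gamma-delta T cell markers, only Sox13 and Blk were listed, and their sum was 1.55, 0.454 and 0.738 CPM.

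The first comparison asked what IL-15 and TGF-beta did to stimulated young cells. Ahr, Gpr15, Maf and Ahrr rose, 4 of the 9 genes, while Tiparp, Rora and the 3 cytokine genes did not pass. Over all 11588 genes tested, 7.78% were called, 4.18% higher and 3.6% lower, and none of the 9 fell. Whichever columns were paired (4 ways), Ahr, Gpr15 and Maf stayed past 2-fold, 3 of the 9, beside 3.44% of genes upward. Gpr15 and Ahrr were under 1 CPM in young TCR and were tested only through young TRM, where they had to be higher, so the counts are a description and are not read against these shares. The median log2 ratio of all tested genes was 0.02.

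Ahr (gene ID 11622, chromosome 12, 35497979 to 35534989), the receptor itself, gave 1.72 and 2.62 CPM in the columns of young TCR, 48.4 and 46.2 CPM in those of young TRM, and 50.8 and 46.7 CPM in those of aged TRM. The young TCR columns lay far below all the others, and the columns of both TRM samples overlapped. With columns summed, Ahr rose from 2.17 to 47.2 CPM, 21.7-fold (interval 17.5 to 27.2), the 18th highest log2 ratio of the genes tested. In aged TRM it was 1.03-fold of young TRM (0.967 to 1.10).

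Ahrr (gene ID 11624, chromosome 13, 74211118 to 74292331), which encodes the AHR repressor, was barely detected in young TCR, with 1 and 3 reads in the columns. It had 23 and 23 reads in young TRM and 61 and 111 in aged TRM, so the samples did not overlap although the aged columns stood apart. From 0.0987 to 1.31 CPM it rose 13.2-fold (4.83 to 50.6), a log2 ratio of 1.07 that was under 2-fold with the second column alone (0.93), in 1 or more of the 4 pairings of the columns (lowest 0.92) and by the authors' TPM (0.59).

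Tiparp (gene ID 99929, chromosome 3, 65528447 to 65555518), the other target that acts back on AHR, gave 24.8 and 27.6 CPM in young TCR, 32.5 and 35.7 CPM in young TRM, and 38.0 and 41.4 CPM in aged TRM. The columns of the 3 samples did not overlap, but the differences were small: 1.31-fold (1.20 to 1.42) in the first comparison and 1.16-fold (1.07 to 1.25) with age. Neither passed 2-fold. Another gene overlaps Tiparp in the annotation, as also holds for Rora and Il21, and no source at hand tells whether counting used strand.

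Gpr15 (gene ID 71223, chromosome 16, 58716643 to 58718872), the homing receptor gene, gave 0.443 and 0.445 CPM in young TCR, 6.48 and 6.10 CPM in young TRM, and 27.5 and 33.6 CPM in aged TRM. The samples did not overlap at either step. It rose 14.1-fold (8.73 to 24.3) with the cytokines in young cells, from 18 reads to 221.

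Among the transcription factor genes, Maf (gene ID 17132, chromosome 8, 115703253 to 115706894) encodes c-MAF, which acts on Il21 and Il10 in T cells. Its columns held 3.05 and 3.17 CPM in young TCR, 8.96 and 9.85 CPM in young TRM, and 16.8 and 19.0 CPM in aged TRM. Maf rose 3.04-fold (2.47 to 3.76) in the first comparison, where with 5 CPM added in place of 1 it missed the call (log2 ratio 0.83). Rora (gene ID 19883, chromosome 9, 68653404 to 69388246), which encodes ROR-alpha, had 27.8 and 29.7 CPM, then 45.3 and 51.2 CPM, then 68.0 and 66.8 CPM in the same order. The samples stood in the same order for both genes, and the step of Rora in young cells was 1.69-fold (1.57 to 1.82), short of a call.

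The 3 cytokine genes were near the limit of detection in both young samples. Il17a (gene ID 16171, chromosome 1, 20730905 to 20734496) had 5 and 6 reads in young TCR and 3 and 12 in young TRM. Il21 (gene ID 60505, chromosome 3, 37222759 to 37232636), a cytokine that sustains type 17 and B cells, had 4 and 13 reads and then 1 and 3, and Il22 (gene ID 50929, chromosome 10, 118204584 to 118210047), which acts on epithelium, had 2 and 3 and then 0 and 1. None reached 1 CPM in either young sample, so none was tested. The intervals of the ratios ran from 0.673 to 3.78 for Il17a, from 0.0663 to 0.830 for Il21 and from 0.00487 to 2.06 for Il22, and only that of Il21 lay wholly under 1. The young TCR columns of Il21 themselves differed 3.27-fold (1.01 to 13.8), so no decrease of Il21 is read from its interval.

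**Figure D1:**
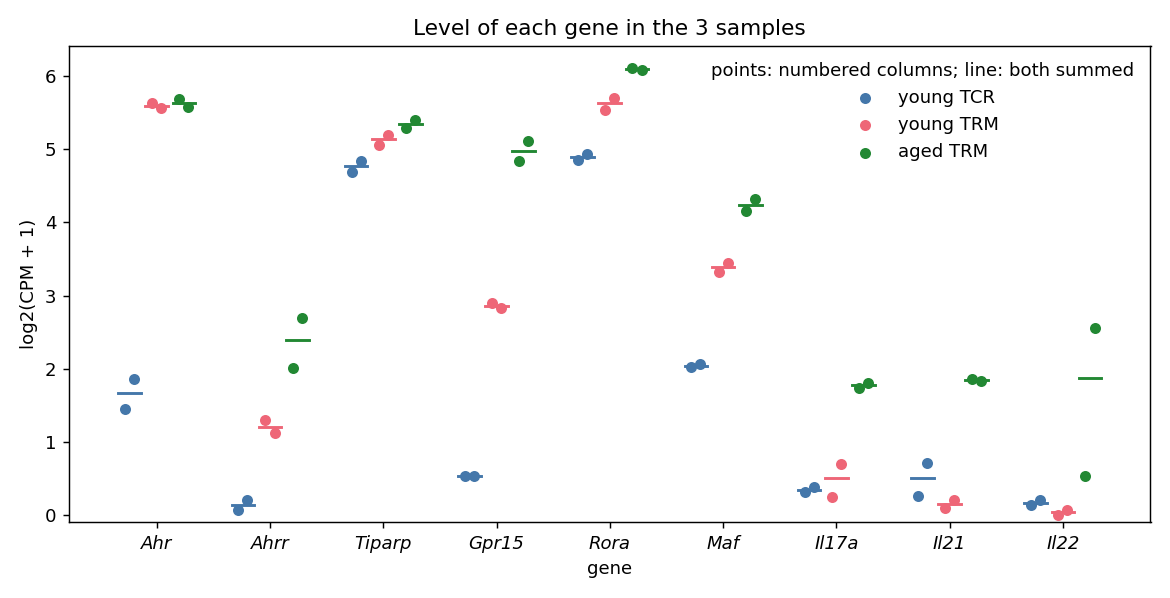
Levels of the 9 genes as log2(CPM + 1) in young TCR, young TRM and aged TRM; points are the 2 numbered columns of a sample and the line is the level with both summed. Ahr stands at 2.17 CPM in young TCR against 47.2 and 48.7 CPM in the TRM samples, Gpr15 climbs at both steps, and the aged points of Il22 lie apart at 0.444 and 4.86 CPM.

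Around these genes, the chaperones and partners of AHR were mostly not called in the first comparison. Of 9 in the list 8 were tested, 1 rose and none fell, with a median log2 ratio of -0.02 beside 0.02 for all tested genes. The gene that rose was Src, a kinase found in the AHR complex, at 0.789 and 8.34 CPM. Src was tested only through young TRM, where it had to be higher. Beside this and the later lists of this comparison, 4.18% of all tested genes were called higher and 3.6% lower. The list counts are a description and are not read against these shares. Arnt, the partner in the nucleus, had 69.3 CPM in young TCR and 59.6 CPM in young TRM, and the HSP90 genes Hsp90ab1 3804 and 3045 CPM and Hsp90aa1 1614 and 934 CPM, a log2 ratio of -0.79 for the last. Nfe2l2, which encodes the stress factor NRF2, had 28.5 and 57.6 CPM and a log2 ratio of 0.99, just under the call. The median near 0 thus covers differences in both directions.

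Of 17 AHR target genes, 11 were tested, 5 rose and 2 fell, with a median of 0.77. Gpr15 and Ahrr were tested only through young TRM, where they had to be higher, and both enter the count and the median. Besides Gpr15 and Ahrr, the ectoenzyme gene Entpd1, which encodes CD39, rose from 12.1 to 69.7 CPM, the receptor kinase gene Kit from 29.6 to 78.4 CPM, and Scin, which encodes an actin-severing protein, from 4.14 to 10.2 CPM. Ugt1a7c, a glucuronosyltransferase gene, fell from 4.74 to 1.84 CPM. The call of Ugt1a7c was lost by the authors' TPM (-0.86) and with the first column alone (-0.93), and that of Scin in 1 or more pairings of the columns. Transcripts of the UGT1A locus share exons, and no source at hand tells how shared reads were counted. Cyp1a1 and Cyp1b1, the detoxifying enzymes most used as readouts of AHR, had 1 and 3 reads in young TCR and 5 and 3 in young TRM, and Cyp1a2 had 2 and 0. None of the 3 was tested.

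Genes that make or import AHR ligands moved in both directions: of 14, 10 were tested, 1 rose and 3 fell, with a median of 0.34. Tph1, tryptophan hydroxylase, rose from 6 reads to 110, or 0.148 to 3.12 CPM. Il4i1, an amino acid oxidase that yields AHR ligands from tryptophan, fell from 7.20 to 2.64 CPM, and so did the kynurenine pathway genes Kmo (1.87 to 0.397 CPM) and Kyat3 (8.14 to 3.32 CPM). The call of Kmo was lost by the authors' TPM (-0.92) and that of Kyat3 in 1 or more pairings of the columns. Tph1 was tested only through young TRM and Kmo only through young TCR, which set their directions. The tryptophan-opening enzymes Ido1 and Tdo2 had at most 8 reads in any sample. Slc7a5, a chain of the carrier that takes up tryptophan and kynurenine, had 286 and 432 CPM and was not called.

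Type 17 transcription factor genes were divided in young cells. Of 18, 17 were tested, 5 rose and 3 fell, with a median of 0.51. Next to Ahr and Maf, Ikzf2 (Helios) rose from 117 to 315 CPM and Nfkbiz, an inhibitor-like partner of NF-kappa-B, from 27.3 to 70.4 CPM, while Batf, an AP-1 factor needed for type 17 cells, fell from 62.7 to 11.2 CPM and its relative Batf3 from 20.5 to 8.32 CPM. The call of Batf3 was lost with the first column alone (-0.92).

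Of 14 cytokine and chemokine genes of the type 17 list, 12 were listed and 4 tested, of which 2 rose and 2 fell. Tnf rose from 15 to 44.7 CPM and Ccl20, the ligand of CCR6, from 0.0987 to 1.79 CPM. Csf2, which encodes GM-CSF, fell from 22.4 to 3.29 CPM and Il10 from 3.75 to 0.965 CPM. Ccl20 was tested only through young TRM and Il10 only through young TCR, which set their directions. Among 17 receptor genes 12 were tested, 4 rose and none fell, with a median of 0.66. These were Il18r1 (10.7 to 80.7 CPM), Ccr6 (0.839 to 3.75 CPM) and the TGF-beta receptor chains Tgfbr1 (42.1 to 158 CPM) and Tgfbr2 (118 to 240 CPM), the last with a log2 ratio of 1.02 that lost its call when libraries were scaled by totals only (0.96) and with the first column alone (0.93). Ccr6 was tested only through young TRM, where it had to be higher. Il23r, the receptor chain that maintains type 17 cells, had 12 reads in young TCR, 4 in young TRM and 10 in aged TRM.

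Factors that oppose the type 17 program split as well, with 12 of 13 tested, 2 risen and 4 fallen, and a median of 0.03. Foxp3, which defines regulatory T cells, was among the genes that rose, from 1.95 to 33.6 CPM, and Id3 rose from 9.92 to 31.0 CPM. Bcl6, Nfil3, Eomes and Gata3 fell, from 23.9 to 3.01 CPM, 127 to 45.1 CPM, 217 to 93.5 CPM and 88.4 to 39.4 CPM. Markers of other cells also moved beside these genes in the first comparison. The summed level of 7 NK and innate lymphoid genes was 172 CPM in young TCR and 201 CPM in young TRM, that of 4 regulatory T cell genes 1253 and 1700 CPM, that of 5 innate-like T cell genes 2.84 and 9.79 CPM, that of 6 B cell genes 46.2 and 16.9 CPM and that of 6 myeloid genes 8.04 and 31.9 CPM. Of the myeloid sum, Mpeg1 gave 4.22 and 28.7 CPM, whereas Lyz2 had 0.913 and 0.596 CPM, Itgam 2.59 and 2.24 CPM and Csf1r 0.222 and 0.227 CPM. All listed markers had reads except Adgre1, which was at 0 in young TRM, and the part of such cells in the results was not tested.

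**Figure D2:**
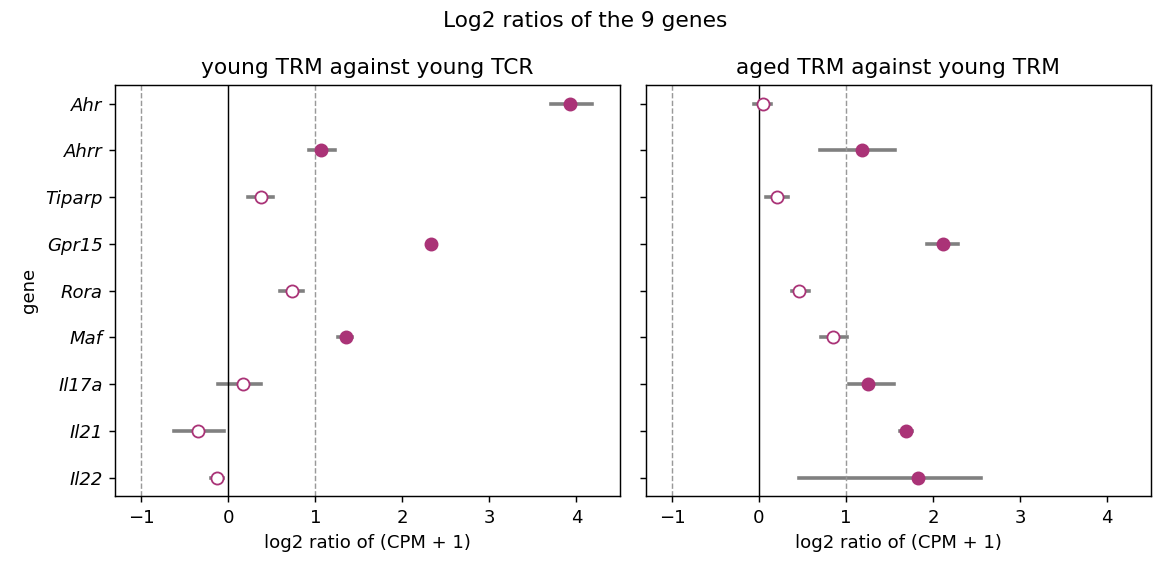
Log2 ratios of (CPM + 1) for the 9 genes in both comparisons, which share the young TRM sample; filled circles are called, open ones are not, grey bars span the 4 pairings of the columns and dashed lines mark 2-fold. Ahr (3.93 and 0.05) changed in the first comparison, and Il17a, Il21 and Il22 are called in the age comparison (1.26, 1.69 and 1.83).

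The second comparison asked how cells of aged mice differed from those of young mice under the cytokine mix. Gpr15, Ahrr and all 3 cytokine genes rose, 5 of the 9, whereas Ahr (1.03-fold), Maf, Rora and Tiparp were not called. Over the 11575 genes tested, 3.4% were called, 2.25% higher and 1.15% lower, and none of the 9 fell. Il17a, Il21 and Il22 were under 1 CPM in young TRM and were tested only through aged TRM, where they had to be higher, so the count of 5 is a description and is not read against these shares. Because young TRM is in both comparisons, an error in that sample would push the ratios of a gene in opposite directions.

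Gpr15 rose 4.87-fold (4.22 to 5.65), from 6.27 to 30.6 CPM, the 30th highest log2 ratio of the genes tested, and over the 4 pairings of columns its log2 ratio was never under 1.93. Ahrr rose 3.24-fold (2.33 to 4.59), from 1.31 to 4.23 CPM. With the first column alone its log2 ratio was 0.70 and by the authors' TPM 0.86, both short of a call, against 1.18 with the columns summed. Maf stood 1.89-fold higher (1.66 to 2.16) and Rora 1.39-fold higher (1.31 to 1.48), neither past 2-fold.

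Il17a rose from 15 reads in young TRM to 98 in aged TRM, from 0.426 to 2.41 CPM and 5.66-fold (3.27 to 10.5). The aged columns, at 2.32 and 2.50 CPM, were close, and the young TRM ones, at 0.191 and 0.615 CPM, lay below both. Il21 rose from 4 reads to 105, from 0.114 to 2.58 CPM and 22.8-fold (8.63 to 85.0), again with aged columns that were close, at 2.61 and 2.55 CPM. Both genes passed 2-fold in all 4 pairings, as did Gpr15, and 1.59% of the genes tested did so upward. Levels this low lost the call when 5 CPM were added (log2 ratios of 0.45 for Il17a and 0.57 for Il21). Il17f, the relative next to Il17a, had 12 reads in young TRM and 22 in aged TRM and was not tested.

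Il22 differed from the other cytokines in that its aged columns stood far apart. They held 9 and 99 reads, or 0.444 and 4.86 CPM, where the young TRM columns held 0 and 1. With columns summed Il22 rose 93.6-fold from 1 read to 108, with an interval from 16.4 to 3731, but with the first column alone it did not reach 1 CPM and its log2 ratio was 0.53. The second aged column was 10.9-fold of the first (5.54 to 24.6), the largest gap among the 11203 genes with at least 50 reads in that sample. Ahrr stood 57th in the same order at 1.81-fold (1.31 to 2.52), while for Il17a (1.08-fold) and Il21 (0.976-fold) the intervals included 1. By intervals alone, 3 of the 9 genes were higher in the second aged column, Il22, Ahrr and Gpr15 (1.22-fold), and none was lower, beside 7.39% higher and 7.59% lower among all genes with at least 20 reads. In young TRM 1 of 6 members with that many reads was higher, Rora, and none lower, beside 7.51% and 8.47% of genes. In young TCR none of 4 was higher or lower, beside 10.6% and 7.01%. Il21, with 17 reads in young TCR, was not among the 4.

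**Figure D3:**
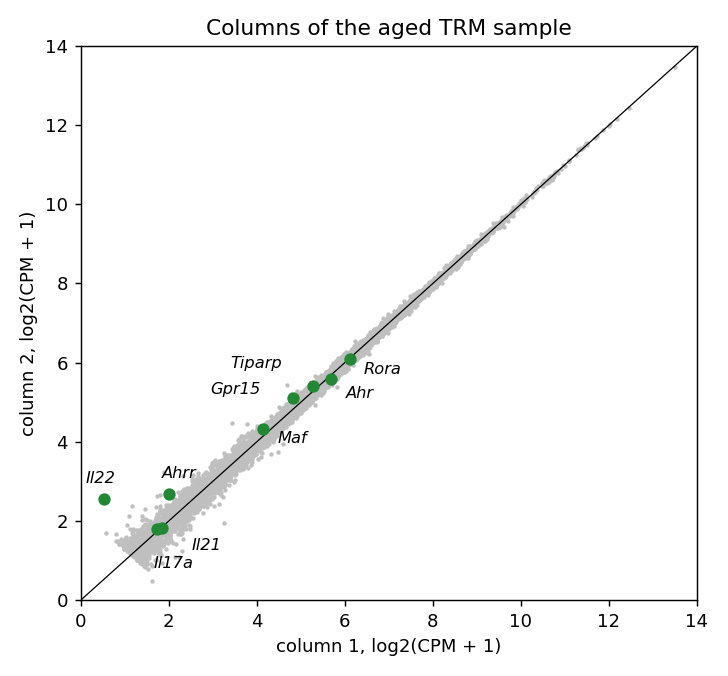
Columns 1 and 2 of the aged TRM sample as log2(CPM + 1); grey points are the 11203 genes of at least 50 reads, green points the 9 genes, and the line marks equal levels. Il22 lies far above the line (0.444 and 4.86 CPM) and Ahrr above it (3.01 and 5.45 CPM), while the other green points lie on or near it.

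Of the 14 type 17 cytokine and chemokine genes 8 were tested, and 7 rose and none fell. Over all tested genes 2.25% were called higher and 1.15% lower. The list's median log2 ratio was 1.76, and that of all tested genes -0.01. Tnf, the tested gene that was not called, had 44.7 CPM in young TRM and 27.4 CPM in aged TRM (log2 ratio -0.69). Besides the 3 above, Csf2 rose from 3.29 to 18.6 CPM, Il10 from 0.965 to 6.86 CPM, Ccl20 from 1.79 to 4.82 CPM and Il23a, a chain of IL-23, from 0.397 to 4.53 CPM. Of these 7, Il17a, Il21, Il22, Il10 and Il23a were under 1 CPM in young TRM and were tested only through their aged level, so that they had to be higher there. These genes also enter the median, so neither the count nor the median is read against the values of all tested genes. The call of Ccl20 (log2 ratio 1.06) failed in 1 or more pairings of the columns. Csf2 in aged TRM lay near its level in young TCR (22.4 CPM), whereas Il17a, Il21 and Il22 lay above theirs.

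Of the AHR target genes 12 of 17 were tested, 4 rose and none fell, with a median of 0.69. Next to Gpr15, Ahrr and Il22 this was Ugt1a7c, at 1.84 and 12.9 CPM. Il22 was tested only through aged TRM, where it had to be higher. Over all tested genes 2.25% were called higher, and the list counts are not read against this share. Hic1, a transcriptional repressor, had 18.1 and 36.7 CPM and a log2 ratio of 0.98, just under the call. Tiparp, Nqo1, Cd38, Kit, Scin and Entpd1 were not called. The ligand enzymes Kynu, kynureninase, and Il4i1 rose, at 1.08 and 4.43 CPM for the first and 2.64 and 7.87 CPM for the second, the 2 called among 9 tested of 14. None of the 8 tested partners and chaperones was called, with Arnt at 59.6 and 58.6 CPM.

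Among 17 tested type 17 transcription factor genes 2 rose, Batf from 11.2 to 24.7 CPM and Batf3 from 8.32 to 21.0 CPM, and none fell. Both calls failed in 1 or more pairings of the columns, and that of Batf3 also with the first column alone (0.83). None of 12 tested receptor genes rose and 1 fell, Ccr6, from 3.75 to 1.35 CPM, a log2 ratio of -1.01 that missed the call when libraries were scaled by totals only (-0.98) and with the second column alone (-0.86). Of the opposing factors, Foxp3 fell from 33.6 to 3.71 CPM and Id3 from 31.0 to 13.7 CPM, 2 of 12 tested, and none rose. Tbx21, the factor of type 1 cells, had 117 and 112 CPM.

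Markers of other cells were compared at the same step. The 5 innate-like T cell genes summed to 9.79 CPM in young TRM and 9.89 CPM in aged TRM, but the members differed: Zbtb16 had 0.284 and 0.959 CPM (10 and 39 reads), Klrb1c 4.14 and 3.47 CPM and Il23r 0.114 and 0.246 CPM. The 3 CD4 T cell genes summed to 20.7 and 26.4 CPM, the 4 regulatory T cell genes to 1700 and 1945 CPM, the 6 B cell genes to 16.9 and 23.0 CPM and the 6 myeloid genes to 31.9 and 17.6 CPM. Of the regulatory T cell sum, Il2ra gave 1117 and 1518 CPM and Ctla4 234 and 255 CPM, while Foxp3 had 33.6 and 3.71 CPM and Ikzf2 315 and 168 CPM. Of the myeloid sum, Mpeg1 gave 28.7 and 15.4 CPM. The 7 NK and innate lymphoid genes summed to 201 and 325 CPM, of which Il7r gave 109 and 203 CPM and Kit 78.4 and 110 CPM, while Ncr1 had 2.19 and 1.18 CPM. Whether such cells took part in the rise of the cytokine genes was not tested.

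**Figure D4:**
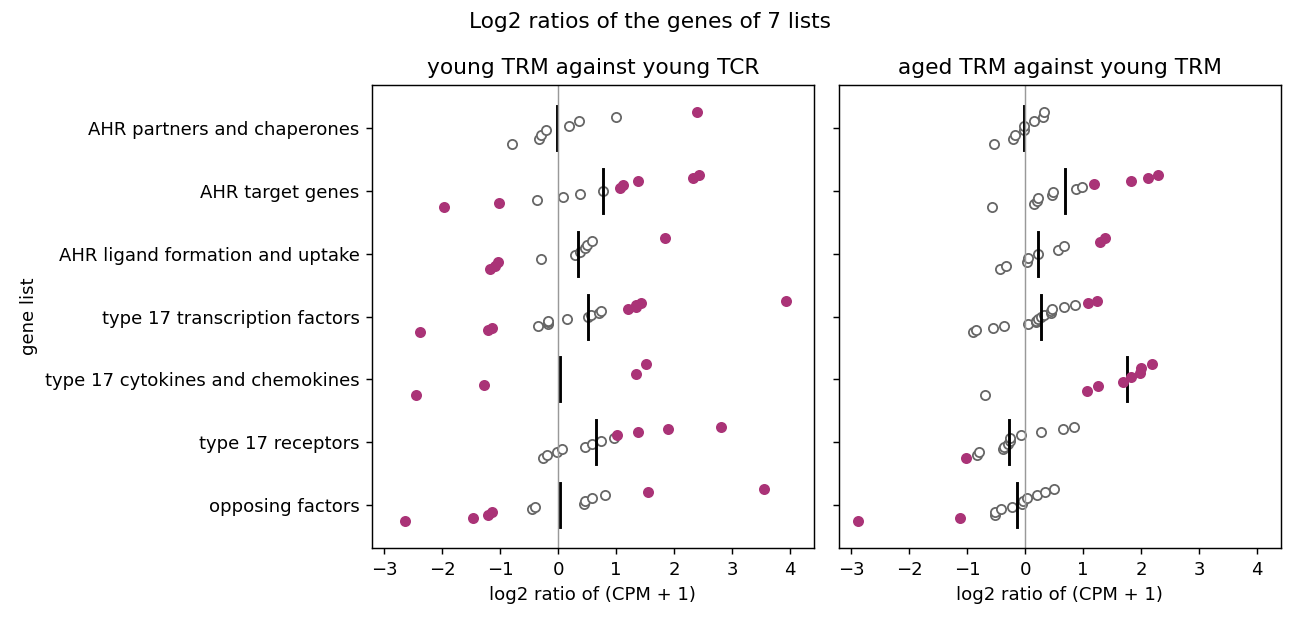
Log2 ratios of (CPM + 1) for the tested genes of 7 lists in both comparisons, which share the young TRM sample; filled points are called, open ones are not, and the black line is the list's median. The type 17 cytokine and chemokine list has 7 called higher in the age comparison, where 2.25% of all tested genes were. Of these 7, Il17a, Il21, Il22, Il10 and Il23a were tested only through aged TRM, where they had to be higher. The target list has medians of 0.77 and 0.69. They include genes tested through 1 sample only, Gpr15 and Ahrr in the first comparison and Il22 in the second.

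Per length, the order of the 9 genes changed between samples. In young TCR, Tiparp came first at 12.4 TPM, then Rora at 5.22 TPM, Maf at 1.69 TPM and Ahr at 0.790 TPM, and the other 5 genes lay below 0.5 TPM. In young TRM, Ahr at 16.8 TPM and Tiparp at 16.02 TPM led with overlapping columns, above Rora at 8.69 TPM, Gpr15 at 5.56 TPM and Maf at 5.04 TPM. In aged TRM, Gpr15 led at 27.9 TPM, and Tiparp at 19.3 TPM and Ahr at 18.0 TPM followed with overlapping columns, then Rora at 12.6 TPM and Maf at 9.94 TPM. Il22 at 5.34 TPM there overlapped both Maf above it and Il17a at 4.29 TPM below it, and the columns of Ahrr at 1.84 TPM overlapped those of Il21 at 1.69 TPM.

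Between aged TRM and young TCR, where age and cytokines both differ, 8 of the 9 genes passed the calling rule upward, all but Tiparp, beside 4.12% of 11688 tested genes. Of these 8, Gpr15, Ahrr, Il17a, Il21 and Il22 were under 1 CPM in young TCR and were tested only through aged TRM, so nothing is read from the count. Gpr15 had the largest log2 ratio of the 9, 4.45, at 68.9-fold (43.4 to 117) and the 9th highest of the genes tested. Rora passed here at 2.34-fold (2.19 to 2.51) although neither of its steps did, and Tiparp stood at 1.52-fold (1.40 to 1.64). This comparison shares a sample with each of the others and adds no separate measurement.

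Likeness of other genes in pattern over the 3 samples was measured by the distance between their pairs of log2 ratios in the 2 main comparisons. Nearest to Ahr, among 8955 genes of at least 10 CPM in a sample, was Igflr1, a receptor of the TNF receptor family, at 8.24, 121 and 130 CPM in young TCR, young TRM and aged TRM (distance 0.21). Rragd, Gpr155, AA467197 and Kcnj15 followed within 0.46. For Gpr15, among 11305 genes of at least 1 CPM, Clnk came nearest, an adaptor of immune receptor signalling, at 0.0247, 4.46 and 14.6 CPM (distance 0.61), then Tjp1 (0.69), Mcpt1 (0.70), Gpr25 (0.97) and Il1a (1.10), which are farther than the genes named for Ahr. Gpr25 encodes a receptor related to GPR15, at 0.0247, 4.14 and 10.4 CPM. For Il17a the nearest were Fer, Car1, Cd63, Olr1 and Ccn3, within 0.16, most of them at a few CPM. With 3 samples, likeness of this kind is a description only.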

How the data were processed

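RNA of 3 samples was sequenced (HiSeq, per the labels' protocols), and per the submitters' processing notes Bowtie, with no version, and GRCm38 (mm10) were used. No source used here gives the counting program, annotation or use of strand. The deposited table gives, per the file headers, read counts, which need not be whole and were taken as estimated counts, and the authors' TPM. A further 24 value columns were not used. Counts were rounded and the 2 columns of a sample summed, and libraries were scaled by TMM (edgeR 4.0.16, R 4.3.3). CPM, log2 ratios with a pseudocount of 1 and 95% Clopper-Pearson intervals of read splits were computed in Python 3.11.15 with scipy 1.17.1. Genes with 1 CPM in either library were tested, with no p-value, as each group has 1 sample. The code was tested on simulated data. The members, 7 gene lists, 9 marker lists and alternatives were chosen with earlier results of these data known. All 9 members were named, with up to 6 called genes per list and comparison and the 5 genes nearest in pattern to Ahr, Gpr15 and Il17a; Ugt1a7c in young cells, Ccl20 with age and uncalled genes were added after their values were seen. Of the lists, Il25 and Il26 were not in the table. Positions were taken by gene ID from RefSeq (GRCm38.p6, 17071 IDs matched). Alternatives covered scaling, pseudocount, filter, unit, column and fold. Among markers, 3 epithelial genes summed to 6.49, 9.93 and 7.75 CPM. Values of some list genes are not reported here.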

Additional observations from a re-analysis of the deposited data

How the results depend on the processing

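With 1 sample per group, nothing here measures variation between mice, and reads set the precision: Ahrr, Il17a, Il21 and Il22 rest on at most 172 reads in a sample. Alternatives were other scaling (totals, DESeq2 factors), pseudocounts of 0.5 and 5 CPM, no filter or one of 10 CPM, the authors' TPM, each column alone, a 1.5-fold threshold and, added after seeing the data, 2-fold in all 4 pairings of the columns. Under these no member fell and no called member changed sign. In young TRM against young TCR, the count of called genes (901) was 486 with a pseudocount of 5, 583 with 10 CPM and 2145 at 1.5-fold. The members called higher (4) were 2 and 1 with the first 2 of these, and all 7 lists together (20 higher, 14 lower) gave 13 and 13 higher and 8 and 9 lower. In aged TRM against young TRM, the count of called genes (393) was 149, 214 and 1176 in the same order. The members called higher (5) were 1 with a pseudocount of 5, 1 with 10 CPM, 3 with the first column alone and 3 over the pairings. All 7 lists together (14 higher, 3 lower) gave 3, 5 and 9 higher with a pseudocount of 5, with 10 CPM and over the pairings, and 1, 5 and 8 lower with a pseudocount of 5, the second column alone and 1.5-fold. Of the members' values 60 of 69 in the first comparison and 85 of 99 in the second stayed on their side of the call. A larger pseudocount and a stricter filter lower these counts by construction, and for the columns the cause was not tested. No paired analysis was possible because each group has 1 sample.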

Other observations

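Columns of aged TRM differed beyond counting error in several gene lists, which were looked at after the gap of Il22 had been seen. Among genes with at least 20 reads in that sample, 2 of 18 type 17 transcription factor genes were higher in column 2 and 6 lower, 4 of 13 AHR targets higher and 1 lower, 2 of 10 type 17 cytokine and chemokine genes higher and none lower, and none of 13 type 17 receptor genes was either. The share was 38.5% of the AHR targets and 44.4% of the transcription factor genes, beside 15% of all genes with that many reads. These shares were not matched for the number of reads per gene, and counting intervals narrow as reads increase. The 4 targets include Il22, which prompted the look, and Ahrr and Gpr15, already given above. The remaining one was Cyp1b1 (1 and 19 reads), which reached 20 reads only through column 2, and the lower one was Kit (2366 and 2125 reads). Cyp1a1 had 0 and 5 reads, with an interval that included 1. Tiparp, at 1.09-fold (0.985 to 1.20), Nqo1, with 33 and 22 reads, and Ahr, at 0.920-fold (0.842 to 1.01), had intervals that included 1. In young TCR 1 of 9 such targets was higher in column 2 and none lower, and in young TRM none of 11 was higher and 1 lower. Of 17 type 17 transcription factor genes in young TRM, 3 were higher and 3 lower, 35.3% beside 15.98% of all genes. A high share in that list was thus not limited to aged TRM. For the same list in young TCR, 3 of 17 were higher and none lower, 17.6% beside 17.6%. Another cytokine gene among the widest gaps of the aged sample was Il9, 6th in order, with 55 and 173 reads. What differs between the columns is not given in the labels.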
